A study of Homo sapiens with 9 samples.

Results

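The genes of 3 protein families that join cells to the matrix around them, the integrins, laminins and collagens, were followed in OVCAR3 ovarian cancer cells with and without hairpins against GPX3. Members were chosen by name among the protein-coding genes of the deposited count table: ITGA with any suffix, ITGB with a digit, LAMA, LAMB or LAMC with a digit, and COL with a number, A and a number. The table lists 58735 genes, 19951 of them protein-coding, and the rule found 82: 18 integrin alpha chains, 8 integrin beta chains, 12 laminin chains and 44 collagen chains. The rule uses names only and no expression value.

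OVCAR3 is an established human line from a high-grade ovarian carcinoma, kept in RPMI medium with fetal bovine serum and bovine insulin. RNA was sequenced from 3 groups of 3 replicates after 72 h in culture. The control group carried a scramble short hairpin RNA and is labelled wild type; the other groups are labelled GPX3 knock-down and carried hairpin 76 or hairpin 78, called sh76 and sh78 below. A short hairpin RNA is processed in the cell to a small guide that lowers matching mRNAs, and GPX3 encodes a secreted glutathione peroxidase that reduces peroxides. All 3 groups thus share the line and the presence of a hairpin. The labels do not say whether the replicates were separate cultures or transductions, so the p-values below measure the spread between these samples, which may be technical.

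Integrins are cell-surface receptors made of an alpha and a beta chain. The pairing sets the ligand: some alpha chains bind collagens, some bind laminins, and some pair to read the RGD sequence of fibronectin, vitronectin and latent TGF-beta. Laminins are trimers of an alpha, a beta and a gamma chain that form the sheet of the basement membrane beneath epithelia, where they meet a network of collagen IV. Fibrillar collagens give tissues tensile strength and come mostly from fibroblasts, other collagens sit on fibrils, form anchoring structures or cross the plasma membrane, and carcinoma cells that spread over the peritoneum meet several of them.

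The libraries held between 14652965 and 21327562 counts, and the members took 0.61% to 0.655% of them. GPX3 was measured at 173, 109 and 117 CPM (the count scaled by library size) with scramble, 56.8, 55.2 and 55.5 with sh76, and 35.3, 28.4 and 28.3 with sh78. Every hairpin library lay below every scramble library. The edgeR log2 fold change of GPX3 was −1.25 (SE 0.16, adjusted p 0.00264) with sh76 and −2.12 (SE 0.17, adjusted p 0.000125) with sh78. All 12 epithelial and ovarian carcinoma markers checked, among them PAX8 and EPCAM, were tested genes. Their summed level was 13900 to 14800 CPM with scramble, 13000 to 14200 with sh76 and 11400 to 12200 with sh78. At an edgeR adjusted p under 0.05, 3 of the 12 were called with sh76 and 5 with sh78. The shares over all tested genes were 3.58% and 4.41%, and the direction of the marker calls is not given here. The 6 leukocyte markers summed to 2.25 to 4.85 CPM per library. The 5 endothelial markers summed to 18.4 to 20.4 CPM with scramble, 18.9 to 24.4 with sh76 and 23.7 to 32.2 with sh78. Of 4 tested endothelial markers, 1 was called with each hairpin, and none of 3 tested leukocyte markers was called. The part of these shifts in the results below was not tested.

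Levels are compared between genes as FPKM, which divides the fragment count by gene length as well as by library size. With scramble, 37 of the 82 members had a mean of at least 1 FPKM and 15 of at least 10 FPKM. The highest were ITGB1, the beta chain shared by most integrins, at 75.7 ± 3.75 FPKM (SD, n = 3), COL18A1, a basement membrane collagen whose end fragment is endostatin, at 74.3 ± 1.95, and LAMA5, the alpha chain of the main epithelial basement membrane laminins, at 72.8 ± 3.57. The ranges of these 3 overlapped from one to the next, and the lowest LAMA5 library (69.6) lay above the highest COL26A1 library (67.9). After COL26A1 (62.2 ± 4.99) came LAMC1 (55.2 ± 3.59), ITGB5 (48.3 ± 15.3), ITGB8 (40.6 ± 3.85), LAMB2 (36.7 ± 2.19), ITGAV (32.4 ± 1.31), ITGA3 (29.3 ± 4.26), COL12A1 (27.7 ± 2.01), LAMB1 (23.2 ± 2.32), COL23A1 (16.4 ± 2.59) and LAMB3 (15.6 ± 0.956). From LAMC1 to LAMB2 each overlapped the next, and so did ITGAV, ITGA3 and COL12A1, and COL23A1 and LAMB3.

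At the other end, 24 members had too few counts to be tested: 8 integrin alpha chains, ITGB7, LAMB4 and 14 collagens. The highest count of any of them in any library was 93. In 8 of them (ITGA8, ITGAD, ITGAL, ITGAM, ITGAX, COL19A1, COL20A1 and COL6A5) no library held more than 3 counts. ITGAL, ITGAM, ITGAX and ITGAD are the alpha chains of leukocyte integrins, and ITGA4, ITGA10, ITGA11 and ITGB7 were also below the filter.

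**Figure D1:**
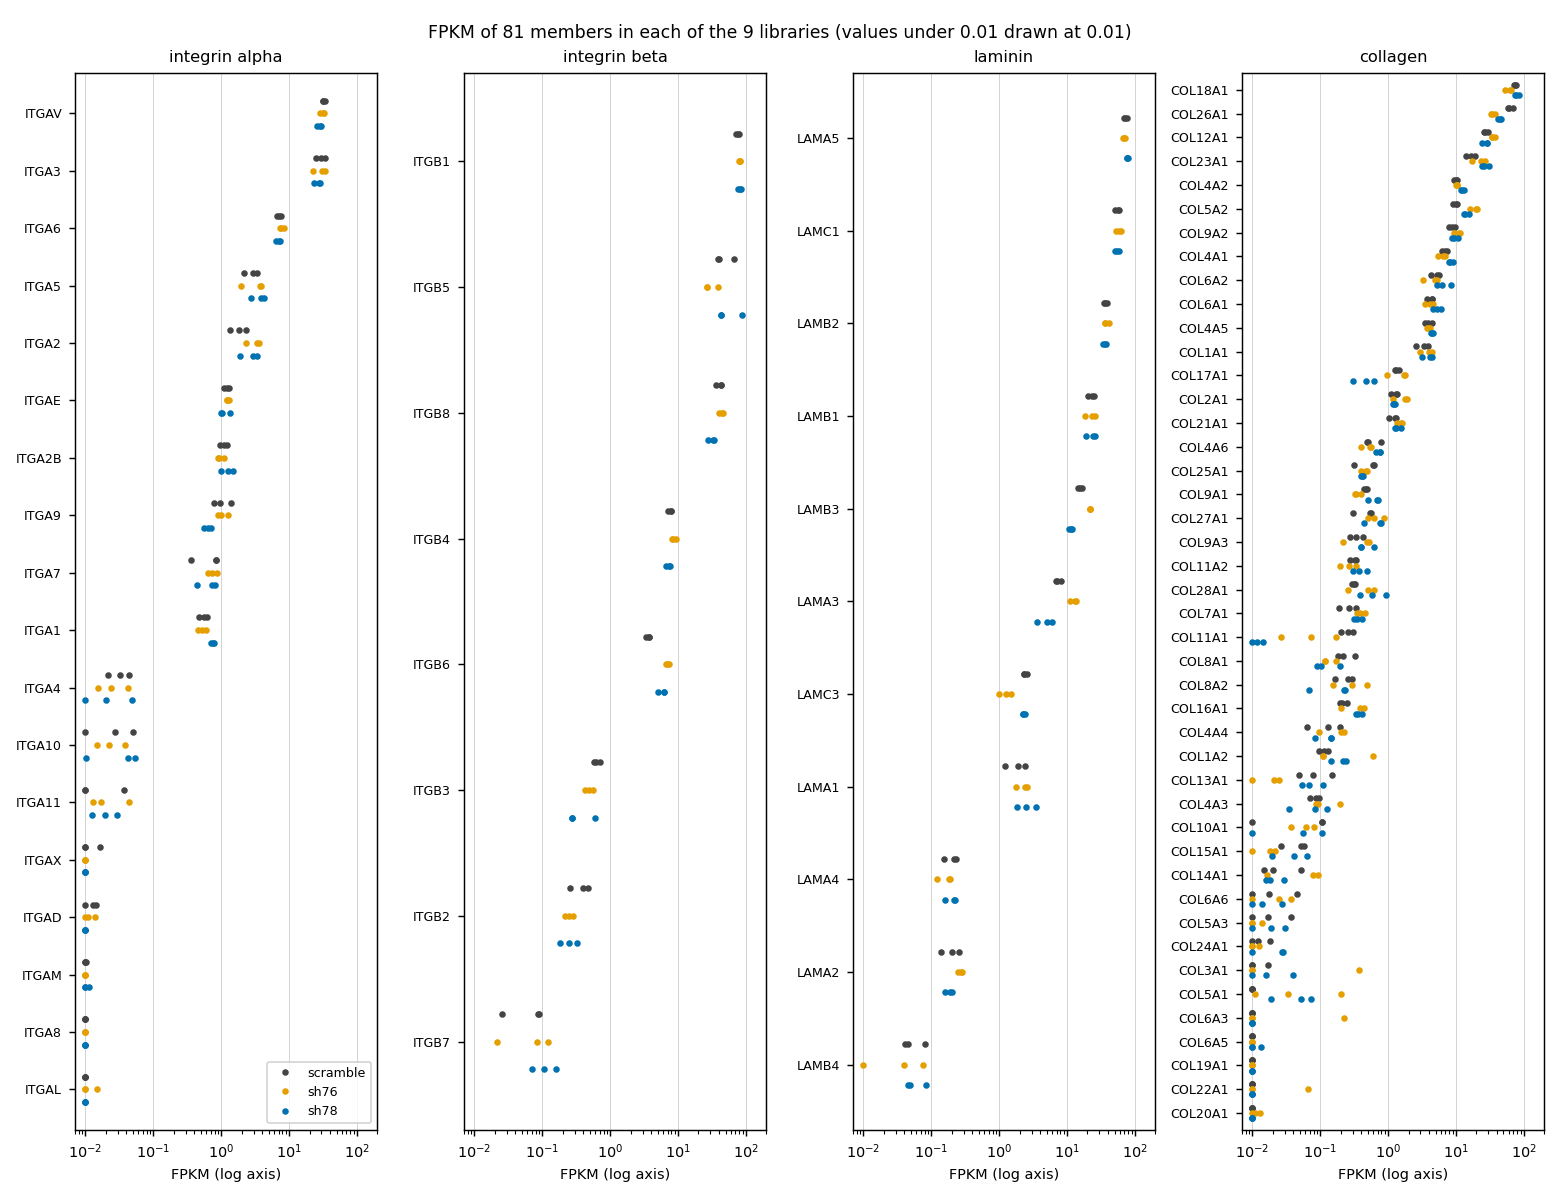
FPKM of 81 members on a log axis in each of the 9 libraries, by family, with scramble in grey, sh76 in orange and sh78 in blue; values under 0.01 FPKM are drawn at 0.01. The members span from below 0.01 to over 70 FPKM, and the 3 groups lie close for most genes. All 3 groups stand apart in genes such as LAMA3, LAMB3, ITGB6, COL5A2 and COL26A1. In LAMC3 only sh76 stands apart, and in COL17A1 only sh78.

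For the comparisons, 58 members (10 integrin alpha, 7 integrin beta, 11 laminin and 30 collagen chains) passed the low-count filter among 17023 genes. A gene was called at an edgeR quasi-likelihood adjusted p (Benjamini-Hochberg over those 17023) under 0.05. With sh76, 8 of the 58 tested members were called, 5 higher and 3 lower than with scramble. That is 13.8% of them, where 3.58% of all tested genes were called (1.43% higher and 2.16% lower). With sh78, 9 members were called, 4 higher and 5 lower, or 15.5% against 4.41% of all tested genes (1.85% higher and 2.56% lower). Between the hairpins 13 members were called, 6 higher and 7 lower in sh78, or 22.4% against 3.7% of all tested genes (1.97% higher and 1.72% lower). Tested members were longer than tested genes in general, with a median gene length of 7752 against 4419 bases, and the part of length in these shares was not tested.

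Pooled over all families, the members moved in both directions. Their median log2 fold change was 0.11 with sh76, 0.05 with sh78 and −0.08 for sh78 against sh76, where the medians over all tested genes were 0.01, 0.01 and 0.0. By family, the medians with sh76 were 0.24 for collagens, 0.06 for laminins, 0.1 for integrin beta and 0.03 for integrin alpha chains. With sh78 they were 0.27, −0.03, −0.09 and −0.03, and the difference between families was not tested. Called with the same sign by both hairpins were 3 members: COL5A2 and ITGB6, higher, and COL26A1, lower. Over all tested genes, 1.32% were called so, 0.435% higher and 0.881% lower. LAMB3 was called by both hairpins with opposite signs, as were 0.0411% of all tested genes. Both hairpin comparisons share the scramble libraries.

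The counts depend on how the replicate numbers are treated. Libraries of the same replicate number deviated together across groups, and a fit that treats the replicate number as a block called more genes in every comparison. It called 24 members with sh76 (18 higher, 6 lower) and 27 with sh78 (16 higher, 11 lower). Between the hairpins it called 27 (14 higher and 13 lower in sh78). Of all tested genes it called 20.4%, 19.9% and 18.3%. These were 1639 higher and 1828 lower with sh76, 1666 and 1722 with sh78, and 1650 and 1467 between the hairpins. Of the 30 tested collagens it called 10 higher and 4 lower with sh76, and 11 higher and 4 lower with sh78. It called 11 members with the same sign by both hairpins (8 higher, 3 lower) and 3 with opposite signs. Over all tested genes the blocked fit called 8.29% with the same sign by both (3.73% higher, 4.56% lower) and 0.781% with opposite signs. All 30 calls of a member in a comparison made without the block were also made with it, in the same direction. Blocked values are given below where they change a call.

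**Figure D2:**
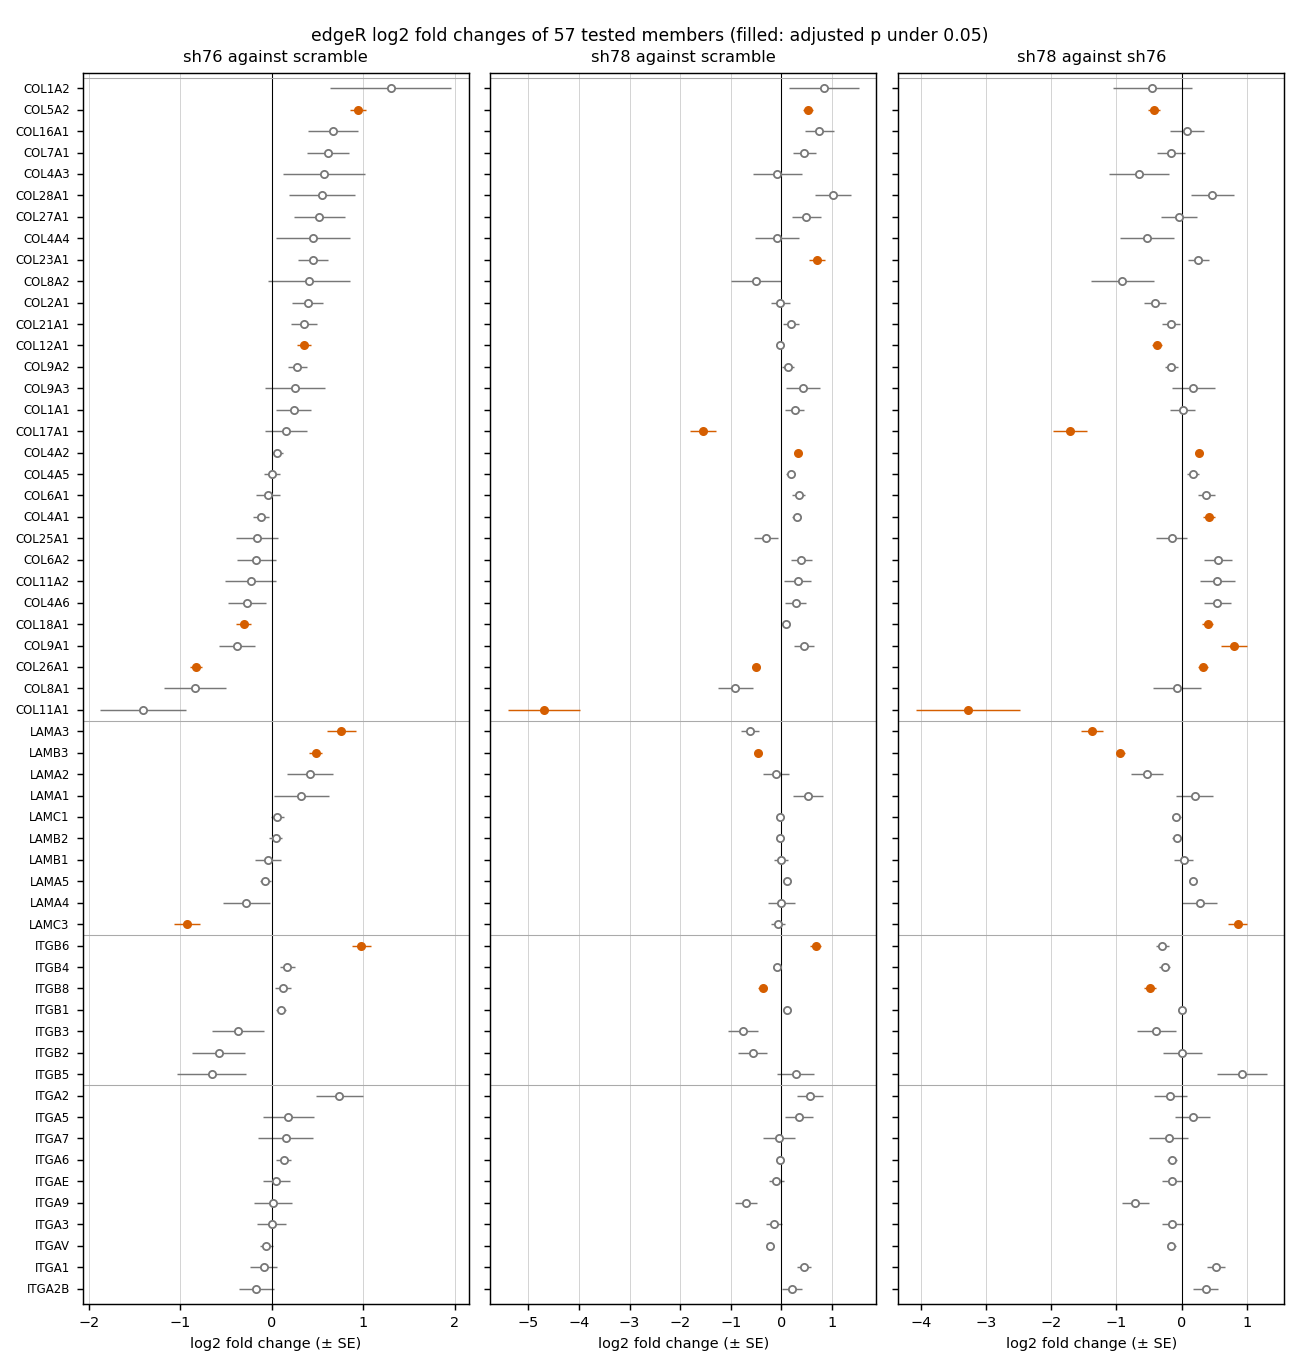
Log2 fold changes (edgeR, points) with their SE (bars) of 57 tested members in the 3 comparisons, grouped into collagens, laminins, integrin beta and integrin alpha chains and ordered within each by the sh76 value; filled points have an adjusted p under 0.05. No integrin alpha chain is filled, where 3.58% to 4.41% of all tested genes were called in a comparison. LAMA3 and LAMB3 lie right of 0 with sh76 and left of 0 with sh78. The far-left COL11A1 values depend on the prior count because sh78 held 4 counts in all.

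None of the 10 tested integrin alpha chains was called in any comparison by the filtered edgeR fit of all 9 libraries without the block. Over all tested genes that fit called 3.58% with sh76, 4.41% with sh78 and 3.7% between the hairpins. With 10 chains, a count of 0 lies near those shares and is not particular to them. At an edgeR unadjusted p under 0.05 the alpha chains numbered 1 with sh76, 3 with sh78 and 3 between the hairpins. DESeq2 called 1, 1 and 2 of them, and limma on log2(FPKM + 1) called 0 in each. Shares of all genes by these 3 measures are not given here, so these counts cannot be set against a background. In that edgeR fit the lowest adjusted p was that of ITGA1, a collagen-binding chain, at 0.0568 between the hairpins (0.000379 with the block). Its log2 fold change was 0.53 (SE 0.14), with a higher value in sh78 in 3 of 3 same-numbered pairs. Exons of ITGA1 share 6.39% of their bases with 4 other annotated genes. The highest of these held 6042 counts in all libraries against 1759 for ITGA1, and how reads in the shared bases were assigned was not tested. With 1 replicate left out, edgeR called ITGA1 in 2 of 9 fits and ITGA9 in 1 of 9, both between the hairpins. The 3 most abundant alpha chains were ITGAV, ITGA3 and ITGA6. ITGAV (ENSG00000138448, chromosome 2, 186590065 to 186680901, plus strand), which pairs with beta chains 1, 3, 5, 6 and 8 to bind RGD ligands, was measured at 259, 266 and 278 CPM with scramble, 235, 264 and 273 with sh76, then 212, 243 and 236 with sh78. The sh78 libraries all lay below the scramble libraries and the sh76 libraries overlapped them. Its log2 fold change with sh78 was −0.22 (SE 0.07, adjusted p 0.115; 0.000152 with the block). ITGA3, a laminin-binding chain, differed by 0.0 (SE 0.16) with sh76 and −0.14 (SE 0.16, adjusted p 0.745; 0.0445 with the block) with sh78. ITGA6, the laminin-binding chain that joins ITGB4 in hemidesmosomes, differed by 0.13 (SE 0.08, adjusted p 0.447) and −0.02 (SE 0.08, adjusted p 0.952).

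The blocked fit called 1 of the 10 alpha chains with sh76, 6 with sh78 and 3 between the hairpins. Of all tested genes it called 20.4%, 19.9% and 18.3% in the same comparisons. With 10 chains, the counts with sh76 and between the hairpins lie near those shares and are not particular to alpha chains. Only the sh78 count lies well above its share, and that difference was not tested. The clearest alpha chain by the blocked fit was ITGA2, the alpha chain of the main epithelial collagen receptor, named here because of its blocked value. It was measured at 10.9, 18.8 and 14.4 CPM with scramble, 18.3, 28.9 and 26.5 with sh76, and 15.2, 27.3 and 23.4 with sh78. Replicate 1 was the lowest in each group, and the groups overlapped while each hairpin library exceeded its same-numbered scramble library. The fold changes of ITGA2 were 0.74 (SE 0.26, adjusted p 0.172; 1.82e-08 with the block) and 0.57 (SE 0.26, adjusted p 0.307; 5.87e-06 with the block). With sh78 the block also called ITGA1 and ITGA5 (higher) and ITGA9 (lower), with values of 0.45 (SE 0.14), 0.35 (SE 0.28) and −0.70 (SE 0.22) in the fit without it.

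Among the beta chains, ITGB6 rose with both hairpins and ITGB8 fell with sh78. Both encode partners of ITGAV that bind latent TGF-beta, and ITGB6 is restricted to epithelia. ITGB6 (ENSG00000115221, chromosome 2, 160099666 to 160200313, minus strand) was measured at 17.6, 16 and 17.6 CPM with scramble. It reached 31.8, 33.9 and 34.9 CPM with sh76 and 23.7, 28.9 and 29.4 CPM with sh78. Each hairpin group lay wholly above the scramble group, and every sh76 library lay above every sh78 library. The log2 fold changes were 0.98 (SE 0.10, adjusted p 0.000192) and 0.68 (SE 0.11, adjusted p 0.00216), and neither call was lost when any replicate was left out. The difference between the hairpins was −0.30 (SE 0.10, adjusted p 0.14; 0.00477 with the block). Exons of ITGB6 share 20.6% of their bases with an annotated neighbour, AC092153.1, which held 6 counts in all 9 libraries. How reads in these shared bases were assigned was not tested, which bears on the level of ITGB6 against other genes.

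Per length and against its partner, ITGB6 stood at 0.112 ± 0.00678 of the ITGAV FPKM with scramble, 0.228 ± 0.0072 with sh76 and 0.207 ± 0.0111 with sh78. The 209 bases upstream of ITGB6 that lie before its first annotated exon are shown because ITGB6 is the integrin chain called by both hairpins (RefSeq, GRCh38.p14, chr2:160200314-160200522, minus strand). No capitals appear in them, as none of 4 motifs searched on both strands was found: the AP-1 site (TGANTCA), the GC box (GGGCGG), the CCAAT box (CCAAT) and the TATA box (TATAAA).

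ITGB6 upstream: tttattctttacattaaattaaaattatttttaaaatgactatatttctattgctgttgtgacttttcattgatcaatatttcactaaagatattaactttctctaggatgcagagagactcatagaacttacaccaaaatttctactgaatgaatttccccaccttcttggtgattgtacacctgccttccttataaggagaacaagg

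None of the 4 motifs contains another. Over the 250 bases upstream of a RefSeq start, the AP-1 site was found in 6.59% of 34788 windows, the GC box in 42.6%, the CCAAT box in 32.0% and the TATA box in 10.8%. The 77 windows of members held them in 3.9%, 53.2%, 22.1% and 13.0%. Entries were found for 58 of the 82 members and for 13 of the 15 called in any comparison.

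ITGB8 (ENSG00000105855, chromosome 7, 20330702 to 20415754, plus strand) was measured at 553, 653 and 652 CPM with scramble, 623, 715 and 677 with sh76, and 421, 517 and 503 with sh78. All sh78 libraries were the lowest of the 9, and sh76 overlapped scramble. The fold change with sh78 was −0.37 (SE 0.09, adjusted p 0.0309), and between the hairpins it was −0.49 (SE 0.09, adjusted p 0.00801). The first of these calls was lost without scramble replicate 2 or 3 (adjusted p 0.117 and 0.109) and without sh78 replicate 1 or 3 (0.0896 and 0.0608). With sh76 the value was 0.12 (SE 0.09, adjusted p 0.54; 0.0285 with the block).

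ITGB5, another partner of ITGAV and a vitronectin receptor chain, had a library in each group well apart from the other two. It was measured at 428, 260 and 251 CPM with scramble, 250, 175 and 171 with sh76, and 576, 283 and 278 with sh78. Replicate 1 was the highest library of each group, so that the scramble and sh78 groups overlapped, while all sh76 libraries lay below the lowest scramble library. The fold changes were −0.66 (SE 0.38, adjusted p 0.44; 0.0141 with the block) with sh76 and 0.28 (SE 0.37, adjusted p 0.79; 0.209 with the block) with sh78. The difference between the hairpins was 0.93 (SE 0.38, adjusted p 0.292; 0.00455 with the block). Without sh78 replicate 1 the sh78 value turned to −0.16 in the fit without the block, which ignores the pairing. The log2 ratios of the same-numbered sh78 and scramble libraries were 0.43, 0.12 and 0.15.

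ITGB1, at 458 ± 21, 490 ± 14.6 and 489 ± 25.7 CPM (SD, n = 3) in the scramble, sh76 and sh78 groups, differed by 0.10 (SE 0.06) in each hairpin comparison, with adjusted p 0.439 and 0.466. ITGB4, the hemidesmosomal partner of ITGA6, had fold changes of 0.17 (SE 0.08, adjusted p 0.309; 0.0292 with the block) with sh76 and −0.26 (SE 0.08, adjusted p 0.112; 0.000916 with the block) between the hairpins. ITGB3, the vitronectin receptor chain first known from platelets, was at −0.76 (SE 0.30, adjusted p 0.189; 0.0234 with the block) with sh78. Of its exon bases, 51.6% overlap another annotated gene, which held 0 counts. How reads in the shared bases were assigned was not tested, so that count does not show that ITGB3 lost none.

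**Figure D3:**
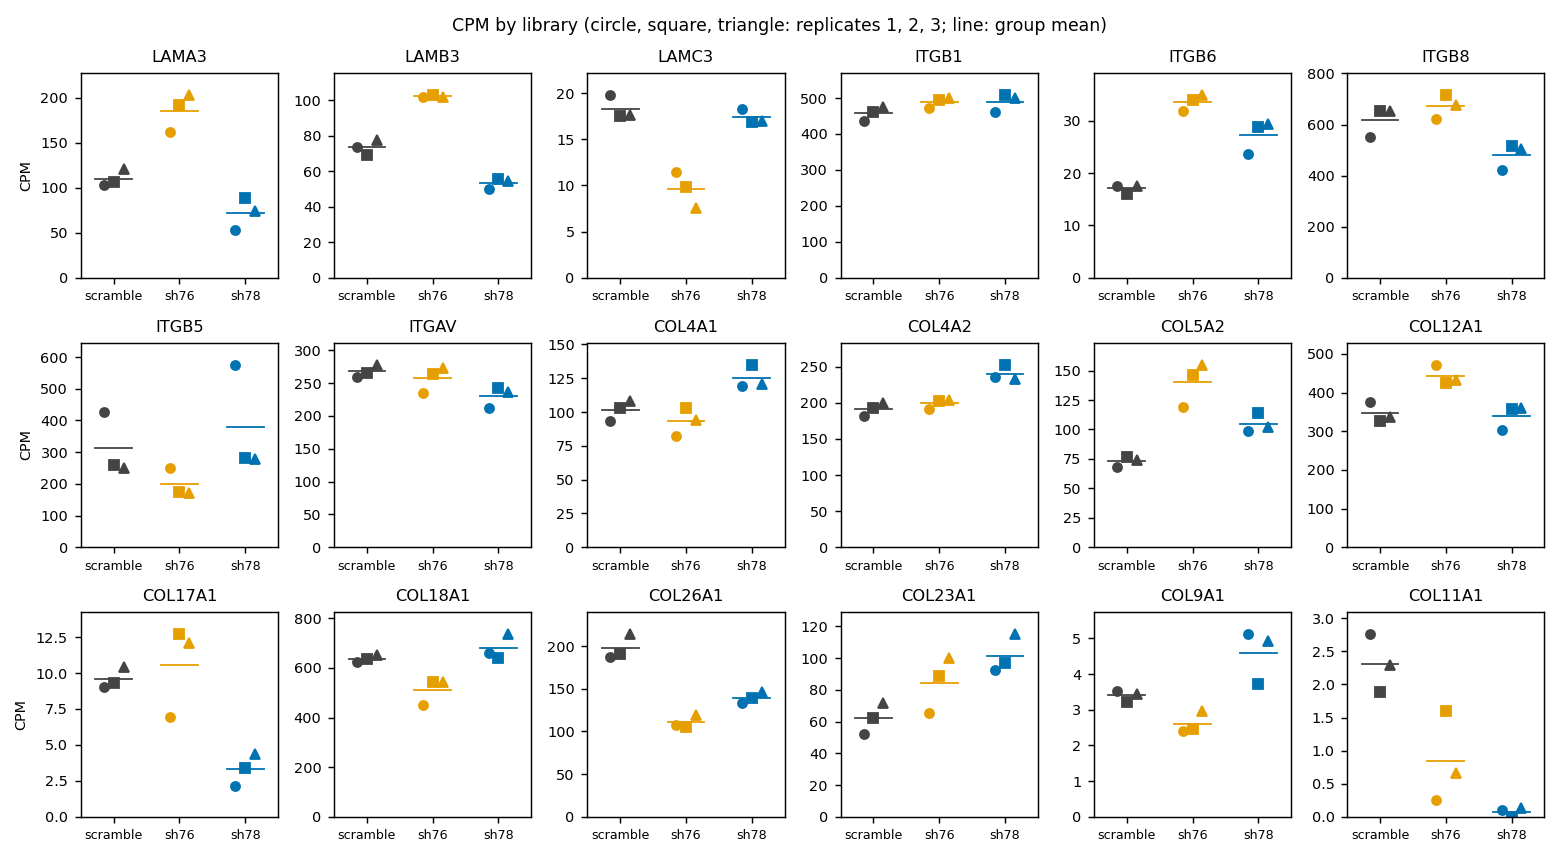
CPM of 18 members in each library (circle, square and triangle for replicates 1, 2 and 3) with the group mean as a line; each panel has its own vertical axis from 0. LAMA3 and LAMB3 stand above scramble with sh76 and below it with sh78, ITGB6 and COL5A2 stand above it with both hairpins, COL26A1 stands below it with both, and replicate 1 is the highest ITGB5 library in each group.

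LAMA3 and LAMB3 encode chains of the laminin that anchors epithelia through hemidesmosomes. LAMB3 rose with sh76 and fell with sh78, and LAMA3 rose with sh76 and was lower with sh78 than with sh76. LAMB3 (ENSG00000196878, chromosome 1, 209614870 to 209652466, minus strand) was measured at 73.5, 69.5 and 77.9 CPM with scramble, 102, 103 and 102 with sh76, then 50, 55.9 and 54.5 with sh78. The 3 groups did not overlap, with sh76 highest and sh78 lowest. The fold change was 0.48 (SE 0.07, adjusted p 0.0021) with sh76 and −0.46 (SE 0.07, adjusted p 0.002) with sh78. Between the hairpins it was −0.94 (SE 0.07, adjusted p 1.3e-05). No LAMB3 call was lost when any replicate was left out.

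LAMA3 (ENSG00000053747, chromosome 18, 23689443 to 23956222, plus strand) was measured at 103, 106 and 121 CPM with scramble, 162, 192 and 203 with sh76, and 52.9, 88.3 and 74.0 with sh78. Again all sh76 libraries were above, and all sh78 libraries below, the scramble libraries. The fold changes were 0.76 (SE 0.16, adjusted p 0.0385) with sh76 and −0.62 (SE 0.17, adjusted p 0.0804; 0.0376 with the block) with sh78. Between the hairpins the difference was −1.38 (SE 0.17, adjusted p 0.00285). The sh76 call was lost without scramble replicate 1, 2 or 3 (adjusted p 0.128, 0.135 and 0.0811), sh76 replicate 2 or 3 (0.126 and 0.115) or sh78 replicate 3 (0.0652).

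Among the 77 member windows upstream of RefSeq starts, the AP-1 site was found in 3: those of LAMA3, LAMB3 and COL10A1. The LAMA3 window holds it at 2 places and 1 of the 3 LAMB3 windows holds it at 1. Each is shown with 11 bases on either side because LAMA3 and LAMB3 are laminin chains called between the hairpins, with the site in capitals (RefSeq, GRCh38.p14). LAMC3, also called between the hairpins, has no entry in the promoter table used here. The sites begin 125 and 69 bases before a RefSeq start of LAMA3 and 67 bases before a RefSeq start of LAMB3. Both windows (chr18:23872770-23873019 and chr1:209651375-209651624) lie inside the annotated gene spans given above, so these are internal starts and not the outer gene starts.

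LAMA3, chr18:23872884-23872912, plus strand: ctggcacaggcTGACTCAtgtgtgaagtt

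LAMA3, chr18:23872940-23872968, plus strand: ccttcctcaccTGAGTCAggcaggcccgg

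LAMB3, chr1:209651424-209651452, minus strand: gtcagccactcTGACTCAttcactttggg

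A match is a string of letters in a reference window, and binding was not measured.

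LAMC3, a gamma chain with a narrow tissue range, fell with sh76, and sh78 differed from sh76. LAMC3 (ENSG00000050555, chromosome 9, 131009082 to 131094473, plus strand) was measured at 19.8, 17.5 and 17.6 CPM with scramble, 11.5, 9.84 and 7.59 with sh76, then 18.3, 16.9 and 17 with sh78. The sh76 group lay wholly below both other groups, which overlapped. Its fold changes were −0.93 (SE 0.14, adjusted p 0.00264) with sh76, −0.07 (SE 0.14, adjusted p 0.856) with sh78 and 0.86 (SE 0.14, adjusted p 0.00402) between the hairpins.

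The chains of the abundant LAMA5, LAMB1 and LAMC1 trimer, the main laminin of mature epithelial basement membranes, and LAMB2 were not called. LAMA5 was measured at 72.8 ± 3.57 FPKM with scramble, 69.1 ± 1.87 with sh76 and 77.7 ± 1.57 with sh78. Its value between the hairpins was 0.17 (SE 0.06, adjusted p 0.135; 0.00188 with the block). LAMC1 and LAMB2 differed from scramble by −0.03 to 0.06 on the log2 scale. LAMA1, an embryonic alpha chain, varied with the replicate number: it was measured at 19.3, 38.0 and 29.7 CPM with scramble, 28.9, 41.3 and 38.4 with sh76 and 29.2, 56.3 and 40.3 with sh78. Replicate 1 was lowest and replicate 2 highest in each group. The LAMA1 values were 0.32 (SE 0.30, adjusted p 0.648; 0.00114 with the block) and 0.52 (SE 0.30, adjusted p 0.434; 1.36e-06 with the block).

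Of the 30 tested collagens, 4 were called with sh76, 6 with sh78 and 9 between the hairpins. The shares over all tested genes were 3.58%, 4.41% and 3.7%. Network collagens held COL4A1 and COL4A2, the ubiquitous chains of basement membrane collagen IV. They lie head to head on chromosome 13 with RefSeq starts 126 bases apart. COL4A2 (ENSG00000134871, 110305812 to 110513209, plus strand) was measured at 182, 193 and 200 CPM with scramble, 192, 202 and 204 with sh76, then 236, 253 and 233 with sh78. The sh78 libraries were the 3 highest, and sh76 overlapped scramble. COL4A2 rose with sh78 by 0.33 (SE 0.06, adjusted p 0.00618). Against sh76 the value was 0.27 (SE 0.06, adjusted p 0.0235), and that call was lost without sh76 replicate 1, 2 or 3 (adjusted p 0.0895, 0.0801 and 0.0544) or sh78 replicate 1 or 2 (0.0509 and 0.0926).

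COL4A1 (ENSG00000187498, chromosome 13, 110148963 to 110307233, minus strand) was measured at 93.7, 103 and 108 CPM with scramble, 82, 103 and 94.2 with sh76, and 119, 135 and 121 with sh78. Its sh78 libraries too were the 3 highest. The sh78 value was 0.30 (SE 0.09, adjusted p 0.0735; 1.21e-05 with the block), and the value between the hairpins was 0.42 (SE 0.09, adjusted p 0.0153). That call was lost without sh76 replicate 1 (adjusted p 0.0506) or sh78 replicate 2 (0.0719). Per length, COL4A1 stood at 0.692 ± 0.0164 of COL4A2 with scramble, 0.61 ± 0.0532 with sh76 and 0.678 ± 0.0204 with sh78.

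Of the fibrillar collagens, COL5A2, a chain of collagen V that regulates the width of collagen I fibrils, was the chain called with sh76. COL5A2 (ENSG00000204262, chromosome 2, 189031896 to 189225312, minus strand) was measured at 68.1, 76.9 and 74.2 CPM with scramble, 119, 146 and 155 with sh76, and 98.7, 114 and 102 with sh78. No group overlapped another. The fold changes were 0.94 (SE 0.09, adjusted p 0.00013) with sh76 and 0.52 (SE 0.10, adjusted p 0.00618) with sh78. Between the hairpins it was −0.42 (SE 0.09, adjusted p 0.0255), a call that was lost without sh76 replicate 2 or 3 (adjusted p 0.114 and 0.105) or sh78 replicate 1 or 3 (0.0917 and 0.096). COL5A1, the alpha 1 chain with which COL5A2 forms its usual trimer, had 0 to 1 count in the scramble libraries and was below the filter. The most abundant collagen I chain, COL1A1, was at 0.24 (SE 0.19, adjusted p 0.577; 0.0137 with the block) with sh76 and 0.26 (SE 0.19, adjusted p 0.557; 0.00496 with the block) with sh78.

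COL11A1, a minor fibrillar chain of cartilage that carcinoma-associated fibroblasts also make, was lower with sh78 (ENSG00000060718, chromosome 1, 102876467 to 103108872, minus strand). Its counts were 43, 32 and 40 with scramble, 4, 33 and 14 with sh76, then 2, 0 and 2 with sh78. Corrected for library size, the sh76 libraries were at 0.247, 1.6 and 0.668 CPM, below the lowest scramble library (1.88 CPM) and above the highest sh78 library (0.13 CPM). No group overlapped another. The summed level, corrected for library size, was 27.9-fold lower with sh78 than with scramble (95% exact interval 10.6 to 104, counting error only; edgeR adjusted p 0.00209). Against sh76 it was 10.7-fold lower (95% interval 3.93 to 40.8; edgeR adjusted p 0.0372) and leaving out a replicate ended the call in 7 of 9 cases. These were without scramble replicate 2 or 3 (adjusted p 0.0556 and 0.0536), sh76 replicate 2 or 3 (0.154 and 0.0636) and sh78 replicate 1, 2 or 3 (0.107, 0.119 and 0.0968). With sh76 the fold change was −1.41 (SE 0.47, adjusted p 0.125; 0.0109 with the block).

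COL26A1, a little-studied secreted collagen with an EMI domain, was the member with the lowest adjusted p in the sh76 comparison. COL26A1 (ENSG00000160963, chromosome 7, 101362820 to 101559024, plus strand) was measured at 187, 191 and 214 CPM with scramble, 108, 105 and 119 with sh76, then 133, 139 and 146 with sh78. The 3 groups did not overlap, and sh76 was the lowest. The fold change was −0.83 (SE 0.07, adjusted p 5.04e-05) with sh76 and −0.50 (SE 0.07, adjusted p 0.00126) with sh78. Between the hairpins it was 0.33 (SE 0.07, adjusted p 0.0216), and this call was lost without sh76 replicate 1 or 2 (adjusted p 0.0671 and 0.112) or sh78 replicate 2 or 3 (0.0618 and 0.0872).

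The plasma membrane collagens COL17A1 and COL23A1 moved apart with sh78. COL17A1, the hemidesmosomal collagen that binds the same laminin, was measured at 9, 9.33 and 10.4 CPM with scramble, 6.97, 12.7 and 12.1 with sh76, and 2.15, 3.37 and 4.35 with sh78 (ENSG00000065618, chromosome 10, 104031286 to 104085957, minus strand). All sh78 libraries lay below all others, and sh76 spanned the scramble group. COL17A1 fell by 1.55 on the log2 scale with sh78 (SE 0.26, adjusted p 0.00437), to 34.0% of the scramble mean. Between the hairpins the value was −1.71 (SE 0.26, adjusted p 0.00297), and neither call was lost when any replicate was left out.

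The bases before the first annotated exons of COL26A1 (chr7:101362625-101362819, plus strand) and COL17A1 (chr10:104085958-104086130, minus strand) are shown as the sequences upstream of a collagen lower with both hairpins and of the collagen with the largest fitted fall with sh78 after COL11A1 (RefSeq, GRCh38.p14). Capitals mark the TATA box and the CCAAT box, the latter read on the other strand. Only COL17A1 holds any of the 4 motifs in its run.

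COL26A1 upstream: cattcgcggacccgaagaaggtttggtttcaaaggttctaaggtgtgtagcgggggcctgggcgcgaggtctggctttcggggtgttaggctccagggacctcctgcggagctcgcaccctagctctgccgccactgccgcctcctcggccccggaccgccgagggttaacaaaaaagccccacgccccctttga

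COL17A1 upstream: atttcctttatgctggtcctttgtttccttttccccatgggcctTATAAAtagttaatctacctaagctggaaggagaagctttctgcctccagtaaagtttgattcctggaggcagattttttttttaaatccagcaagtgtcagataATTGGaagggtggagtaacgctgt

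The GC content of these runs was 64.1% for COL26A1 and 40.5% for COL17A1, and that of the ITGB6 run was 30.1%.

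COL23A1 (ENSG00000050767, chromosome 5, 178237618 to 178590555, minus strand), a transmembrane collagen, was measured at 52.3, 62.3 and 71.4 CPM with scramble, 65.1, 88.8 and 99.7 with sh76, then 92.7, 97.0 and 115 with sh78. The sh78 group lay wholly above scramble, and sh76 overlapped both. It rose by 0.71 (SE 0.16, adjusted p 0.0366) with sh78, a call lost without scramble replicate 1 or 2 (adjusted p 0.0961 and 0.116), sh76 replicate 2 (0.0583) or sh78 replicate 1, 2 or 3 (0.0567, 0.0829 and 0.117). With sh76 the value was 0.45 (SE 0.16, adjusted p 0.175; 1.4e-07 with the block), and the 3 same-numbered pairs all had the sh76 library higher.

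COL18A1 (ENSG00000182871, chromosome 21, 45405137 to 45513720, plus strand) was measured at 622, 638 and 651 CPM with scramble, 449, 544 and 545 with sh76, then 659, 641 and 736 with sh78. The sh76 group lay below both others. COL18A1 fell by 0.31 (SE 0.08, adjusted p 0.0385) with sh76, a call lost without scramble replicate 2 or 3 (adjusted p 0.0989 and 0.104) or sh76 replicate 1, 2 or 3 (0.109, 0.0754 and 0.05). Between the hairpins the value was 0.40 (SE 0.08, adjusted p 0.00964). Of the COL18A1 exon bases, 16.4% are shared with SLC19A1 on the other strand, and the unstranded libraries cannot assign those reads; SLC19A1 held 6868 counts in all and COL18A1 94688.

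Among the collagens that decorate fibrils, COL12A1 (ENSG00000111799, chromosome 6, 75084326 to 75206051, minus strand) was measured at 376, 327 and 338 CPM with scramble, 472, 424 and 432 with sh76, then 304, 357 and 359 with sh78. The sh76 group lay above both others, which overlapped. The fold changes of COL12A1 were 0.35 (SE 0.08, adjusted p 0.0216) with sh76 and −0.38 (SE 0.08, adjusted p 0.0132) between the hairpins. The sh76 call was lost without scramble replicate 2 or 3 (adjusted p 0.11 and 0.0866) or sh76 replicate 1, 2 or 3 (0.067, 0.0601 and 0.0518), and the other without sh78 replicate 1 (0.058). COL9A1, a cartilage chain present here at 3.40 ± 0.159, 2.61 ± 0.302 and 4.59 ± 0.763 CPM (SD, n = 3), was called between the hairpins at 0.81 (SE 0.20, adjusted p 0.0368). That COL9A1 call was lost without scramble replicate 2 (adjusted p 0.0538), sh76 replicate 1, 2 or 3 (0.115, 0.134 and 0.0636) or sh78 replicate 1 or 3 (0.144 and 0.127).

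Collagen VI chains COL6A1 and COL6A2, which lie side by side on chromosome 21 and assemble into beaded microfibrils, were called only by the blocked fit. Their sh78 values were 0.34 (SE 0.13, adjusted p 0.171; 0.00192 with the block) and 0.39 (SE 0.21, adjusted p 0.376; 0.000743 with the block). Other collagens that the block called in a single-hairpin comparison were COL2A1, COL7A1, COL9A2, COL16A1, COL21A1, COL27A1, COL28A1 and COL4A5, each with a positive fold change, and COL8A1, with −0.84 (SE 0.34) and −0.91 (SE 0.35).

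**Figure D4:**
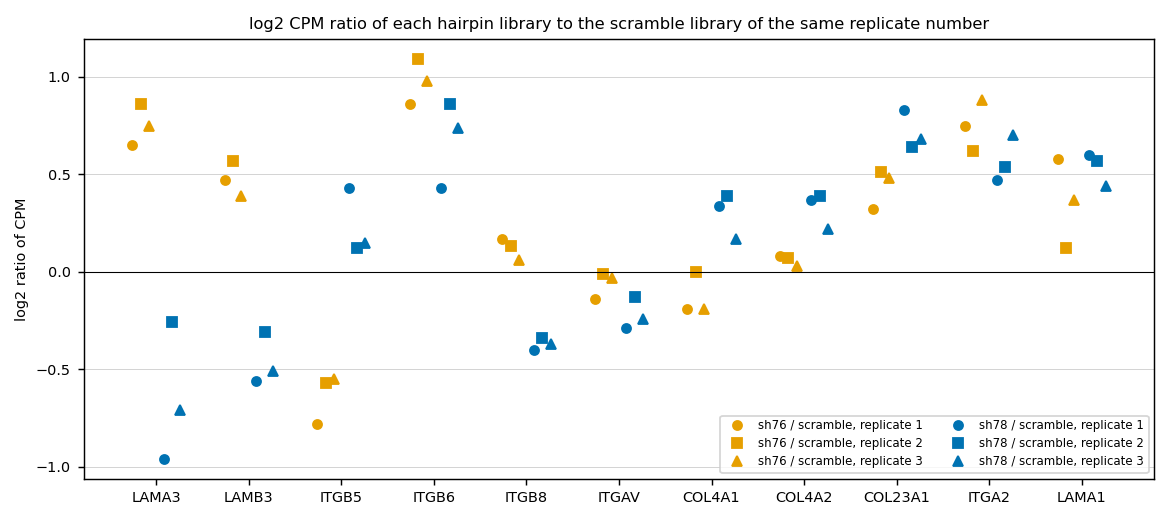
Log2 ratio of CPM of each hairpin library to the scramble library of the same replicate number, for 11 members (orange, sh76; blue, sh78; circle, square and triangle for replicates 1, 2 and 3). All 3 pairs of LAMA3 and LAMB3 lie above 0 with sh76 and below 0 with sh78, all pairs of ITGB6, COL23A1, ITGA2 and LAMA1 lie above 0 with both hairpins, and ITGB5 lies below 0 with sh76 and above 0 with sh78.

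Library sh76 replicate 2 stood apart in a group of collagens. COL1A2, the partner of COL1A1 in collagen I, had 142 counts there and 19 to 51 elsewhere. COL6A3 had 93 counts against 0 to 2, COL3A1 53 against 0 to 4, COL5A1 47 against 0 to 12, and COL22A1 11 against 0. These 5 members were at least 10 counts there and, in CPM, at least 2 times the next library, a rule chosen after the values were seen. By the same rule 44 genes, or 0.253% of the 17386 with 10 counts in that library, stood out in it, and no member stood out in any other library.

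Of the 8 stromal markers, 4 had their highest count in the same library. POSTN had 23 counts against 0 or 1 elsewhere, DCN 11 against 0 to 3, PDGFRA 6 against 0 to 2, and LUM 3 against 0. The other 4 were not highest there alone: PDGFRB had 10 counts against 17 in sh76 replicate 3, FAP 19 against 21 in sh78 replicate 1, THY1 4 as in scramble replicate 2, and ACTA2 22 as in scramble replicate 3. The 8 stromal markers summed to 4.75 CPM in sh76 replicate 2 and to 1.53 to 2.47 CPM in the other 8 libraries, and 2 of the 8 passed the filter. Their part in the collagen counts of that library was not tested. COL1A1, at 44.5 CPM there and 25.5 to 44.1 CPM elsewhere, and COL5A2, at 146 CPM against 155 in sh76 replicate 3, did not stand out. Without sh76 replicate 2, edgeR called 6 members with sh76, 8 with sh78, 8 between the hairpins and 4 with the same sign by both. The share of all genes called in that fit is not given here, so these counts cannot be read as particular to the members. In a bulk sample, a changed number of cells of a type and a changed amount of RNA per cell cannot be told apart.

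**Figure D5:**
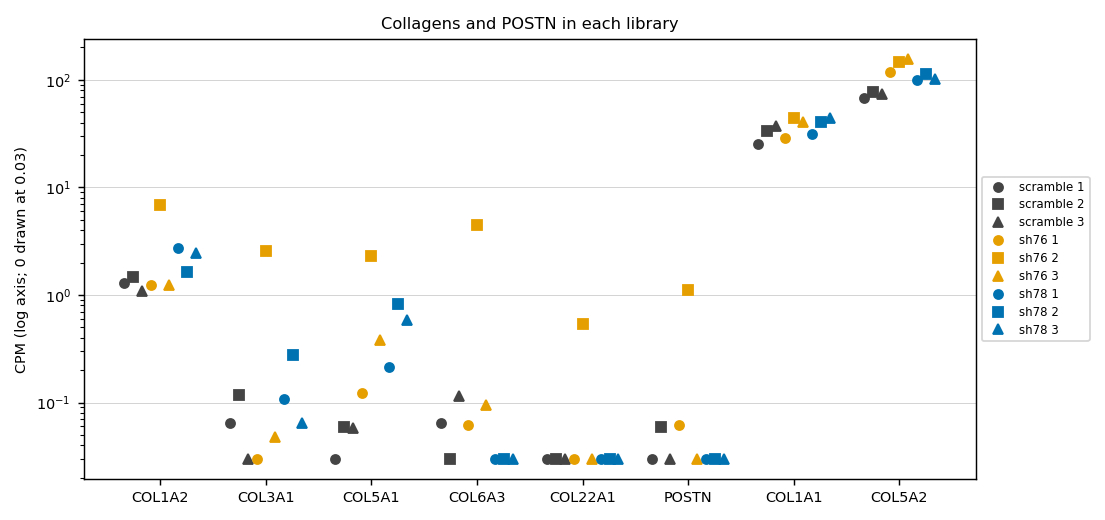
CPM on a log axis of 7 collagens and POSTN in each library, with values of 0 drawn at 0.03. The square for sh76 replicate 2 lies far above the other 8 libraries for COL1A2, COL3A1, COL5A1, COL6A3, COL22A1 and POSTN, and among them for COL1A1 and COL5A2.

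Genes that act with the members were taken from 5 lists. Over all tested genes, 3.58% were called with sh76, 4.41% with sh78 and 3.7% between the hairpins, and the block called 20.4% with sh76. Shares of all genes at an unadjusted p under 0.05, under DESeq2 and under limma are not given here. Counts by those measures therefore cannot be set against a background. Of 25 tested genes of focal adhesions and integrin activation, none was called with sh76, and 2 were called higher with sh78 (TLN1, the talin that activates integrins, and ZYX). At an unadjusted p under 0.05 there were 6 with sh76, DESeq2 and limma called 0, and the block called 8, of which 7 were lower. Of 23 tested genes of collagen processing, 1 was called lower with sh76 (SERPINH1, the collagen chaperone). With sh78, BMP1, the procollagen proteinase, was called higher and PLOD2, a collagen lysyl hydroxylase, lower. Of 8 tested latent TGF-beta genes, none was called with sh76 (1 at an unadjusted p under 0.05, 0 by DESeq2 and limma, 2 with the block) and LTBP3 was called higher with sh78. The median log2 fold changes of these 3 lists were 0.0, 0.01 and −0.14 with sh76 and 0.09, −0.06 and 0.05 with sh78, against 0.01 over all tested genes in each comparison.

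Of 18 tested genes for other matrix proteins, 2 were called higher (EMILIN2, THBS1) and 2 lower (NTN4, FBLN1) with sh76, and 2 higher (TNC, EMILIN2) and 1 lower (NTN4) with sh78. The medians of this list were −0.04 and 0.02. EMILIN2, an elastic fibre glycoprotein that like COL26A1 carries an EMI domain, was measured at 3.47, 3.17 and 2.87 CPM with scramble, 5.80, 7.80 and 8.35 with sh76, and 4.96, 7.50 and 6.69 with sh78. All hairpin libraries lay above scramble, with fold changes of 1.21 (SE 0.21, adjusted p 0.00502) and 1.00 (SE 0.21, adjusted p 0.0132). The sh78 call was lost without scramble replicate 2 or 3 or sh78 replicate 2 or 3, with adjusted p up to 0.0675. NTN4, a netrin that binds laminin gamma chains, was measured at 15.2, 14.5 and 12.1 CPM with scramble, 9.81, 8.43 and 7.40 with sh76, and 7.38, 5.91 and 6.24 with sh78. No group overlapped another, with fold changes of −0.71 (SE 0.15, adjusted p 0.0191) and −1.09 (SE 0.16, adjusted p 0.00126). The sh76 call of NTN4 was lost without scramble replicate 1 or 2 or sh76 replicate 2 or 3, with adjusted p up to 0.0874.

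Of 14 tested matrix receptors and integrin partners outside the family, 1 was called higher (CD44, a hyaluronan receptor) and 3 lower (DDR2, BCAM, CD81) with sh76, and 2 lower (DDR2, BCAM) with sh78. The medians of this list were −0.08 and −0.09. DDR2, a receptor tyrosine kinase for fibrillar collagen, was measured at 9.26, 11 and 11.5 CPM with scramble, 2.96, 4.56 and 3.96 with sh76, and 5.55, 3.44 and 3.57 with sh78. Hairpin libraries all lay below scramble, at −1.46 (SE 0.21, adjusted p 0.00187) and −1.33 (SE 0.21, adjusted p 0.00242). BCAM, a receptor for the laminin alpha 5 chain, was measured at 620, 529 and 512 CPM with scramble, 373, 296 and 298 with sh76, and 448, 364 and 400 with sh78. Again no hairpin library reached the scramble range, at −0.78 (SE 0.11, adjusted p 0.00243) and −0.46 (SE 0.11, adjusted p 0.0332). The sh78 call of BCAM was lost without any scramble replicate or without sh78 replicate 2 or 3, with adjusted p up to 0.126. Between the hairpins, FERMT2, ZYX, BMP1, LOXL1, TNC, TGFB2 and LTBP3 were called higher in sh78, and PLOD2 and CD44 lower.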

How the data were processed

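Poly-A RNA of 9 OVCAR3 libraries (3 scramble, 3 sh76, 3 sh78) was sequenced from non-directional libraries, per the labels' protocols. The submitters' processing notes name HISAT2 2.0.5, featureCounts 1.5.0-p3 and the build hg38, without roles. The authors deposited raw counts per gene, used as the unit of every test, and FPKM values, used to compare levels between genes. Names and coordinates of all 82 members, and start and end of 58735 of 58735 genes, matched GENCODE 29.

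Tests on counts used edgeR 4.0.16 (R 4.3.3) with filterByExpr (minimum count 10, minimum total 15), TMM factors, estimateDisp, robust glmQLFit and quasi-likelihood F tests, fitted over all 9 libraries with a coefficient for each group. P-values were adjusted by Benjamini-Hochberg over 17023 genes, and genes under 0.05 were called. Fold changes are log2, and values per library are CPM on TMM-scaled sizes. The procedure was run on simulated data in which 200 genes changed by a fixed amount and libraries were not paired by replicate number. That run does not cover smaller changes or paired libraries, and its outcome is not given here. Replicates differed by more than sampling noise (chi-square per degree of freedom 4.9 to 11.07). The labels number replicates 1 to 3 in each group, and the 9 same-numbered pairs of libraries had correlated deviations from their group means (r 0.14 to 0.39, against −0.31 to 0.06 in 18 other pairs, across genes), so the numbers were read as pairing libraries, from the data alone. The fit behind the main calls took no block because the labels do not say what the replicate number marks. The blocked fit has 4 residual degrees of freedom and the other 6.

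Alternatives were relative log expression size factors, DESeq2 1.42.0, no low-count filter, the block, limma 3.58.1 on log2(FPKM + 1) and log2(FPKM + 0.1), or with mean FPKM of at least 1, and leaving out each replicate. Named with values were members called in any comparison, the 3 most abundant of each family, partners of called members, list genes called by both hairpins with the same sign, and GPX3; other names were added after their values were seen. The values of 1 member enter the counts but are not reported here. Members and lists were chosen with earlier results of these data known. Sequences are RefSeq's; counting intervals cover counting error only.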

Additional observations from a re-analysis of the deposited data

Results flagged for a closer look

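The direct test of sh78 against sh76 called 13 members, where 3.7% of all tested genes were called. Lower in sh78 were COL11A1 (fitted log2 difference −3.28, which depends on the prior count because sh78 held 4 counts), COL17A1 (−1.71), LAMA3 (−1.38), LAMB3 (−0.94), ITGB8 (−0.49), COL5A2 (−0.42) and COL12A1 (−0.38). Higher in sh78 were LAMC3 (0.86), COL9A1 (0.81), COL4A1 (0.42), COL18A1 (0.40), COL26A1 (0.33) and COL4A2 (0.27). COL5A2 and COL26A1 were called with the same sign by both hairpins against scramble, with different fitted values. Of the 13 calls between the hairpins, those of COL4A1, COL4A2, COL5A2, COL9A1 and COL11A1 were lost under limma on log2(FPKM + 1). Leaving out 1 replicate ended the COL11A1 call in 7 of 9 fits, COL9A1 in 6, COL4A2 in 5, and COL5A2 and COL26A1 in 4 each. The COL4A1 call was lost in 2 fits and the COL12A1 call in 1.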

How the results depend on the processing

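All 30 calls of a member in a comparison kept their direction and stayed called under DESeq2, relative log expression size factors, no low-count filter and the replicate block. With limma on log2(FPKM + 1) or log2(FPKM + 0.1), the same 8 of the 30 were no longer called, and the cause was not tested. These were COL12A1 and COL18A1 with sh76, ITGB8 with sh78, and COL4A1, COL4A2, COL5A2, COL9A1 and COL11A1 between the hairpins. On log2(FPKM + 1) their adjusted p ran from 0.0553 (COL4A1) to 0.0773 (ITGB8), apart from COL11A1 at 0.372. With a mean FPKM of at least 1, 7 of 27 were lost: the same without COL9A1 and COL11A1, and with COL23A1 with sh78 (0.0515). Without the low-count filter the calls rose to 13 members with sh76, 15 with sh78 and 6 by both hairpins with the same sign, with more genes tested. That fit called 3.18%, 3.36% and 1.17% of its 36087 genes in the same 3 counts. It called 2 members below the filter, COL5A1 with both hairpins (adjusted p 5.92e-06 with sh76 and 0.0029 with sh78) and COL13A1 with sh76 (0.0352). The COL5A1 counts were 0, 1 and 1 with scramble, 2, 47 and 8 with sh76, then 4, 12 and 9 with sh78. Of the 24 members below the filter, 8 held at most 3 counts in every library, where depth limits what could be detected. With the replicate block they were 24, 27 and, between the hairpins, 27, with 11 by both hairpins. Under each of the 3 limma settings 8 members were called between the hairpins. Leaving out a replicate gave 5 to 8 members with sh76, 7 to 10 with sh78, 8 to 15 between the hairpins and 3 to 4 by both. The lowest counts came without scramble replicate 2 or 3 or sh76 replicate 3 (5 with sh76) and without sh76 replicate 2 or sh78 replicate 1 (8 between the hairpins). Shares of all genes called without 1 replicate and under limma are not given here, so those counts cannot be set against a background.

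Of the related genes, 9 were called with sh76, 10 with sh78 and 9 between the hairpins. These counts were 16, 19 and 16 without the filter and 33, 37 and 37 with the block. They were 6 with sh78 and 5 between the hairpins under limma on log2(FPKM + 0.1), 5 and 5 on log2(FPKM + 1), and 5, 4 and 5 with a mean FPKM of at least 1. Leaving out a replicate gave 4 to 9, 5 to 10 and 4 to 10. Over all tested genes the shares called in the 3 comparisons were 3.58%, 4.41% and 3.7%. They were 3.18%, 3.36% and 3.12% without the filter and 20.4%, 19.9% and 18.3% with the block. Shares of all genes under limma and without 1 replicate are not given here. These alternatives for the related genes were chosen after seeing the data.

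Signs turned only in values that were not called. ITGA3 with sh76 (0.0) was −0.01 under the 3 limma settings and −0.0 with the block, and ran from −0.12 to 0.16 without 1 replicate. ITGB1 between the hairpins (−0.0) was 0.0 without the filter and under limma. Without 1 replicate, COL12A1 with sh78 ran from −0.08 to 0.04, ITGA6 with sh78 from −0.06 to 0.03, ITGAV with sh76 from −0.1 to 0.0, ITGB1 between the hairpins from −0.03 to 0.04 and ITGB5 with sh78 from −0.16 to 0.57. LAMB2 ran from −0.03 to 0.08 with sh76 and −0.08 to 0.01 with sh78, LAMC1 with sh78 from −0.07 to 0.01 and DDR2 between the hairpins from −0.13 to 0.28.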
